A study of Ovis aries with 12 samples.

Results

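The tight junction genes described here are 9 genes fixed by name: the claudins *CLDN1*, *CLDN3*, *CLDN4*, *CLDN5*, *CLDN7* and *CLDN10*, occludin (*OCLN*), the scaffold *TJP1*, and *YBX3*, a partner of that scaffold. All transcripts of these genes were taken, singly and summed per gene, in each of 12 libraries made from the isthmus of the oviduct of small-tailed Han ewes. A transcript could be paired with 7 of the 9 genes, 10 transcripts in all, out of 10,771 genes and 43,674 annotated transcripts in the table. *CLDN4* and *CLDN5* had no paired transcript and were not analysed here. Every ewe was about 2.5 years old (± 0.5) and had carried an intravaginal progesterone device (300 mg) for 12 days to bring the cycles into step. The ewes carried the *FecB* allele of *BMPR1B* on both chromosomes (*FecB* BB, the mutant) or on neither (*FecB* ++, the wild type), and each library came from another ewe. MF libraries are *FecB* BB ewes in the follicular phase, sampled 45 to 48 h after the device was removed, and ML libraries are *FecB* BB ewes in the luteal phase, on day 9. The wF and wL libraries are *FecB* ++ ewes in the same phases, and each group holds 3 libraries.

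Tight junctions seal the space between neighbouring epithelial cells close to the lumen. Claudins form the strands of the seal, some of them tightening it and others opening pores for ions. Occludin sits in the same strands, and TJP1 (zonula occludens protein ZO-1) ties both to the actin cytoskeleton. YBX3 is a Y-box protein that binds nucleic acids and, in cultured kidney cells, is held at the junction by ZO-1. In the oviduct the luminal epithelium of ciliated and secretory cells carries these junctions and so keeps the luminal fluid apart from the stroma.

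The values are FPKM per transcript, as deposited by the authors: the fragments assigned to a transcript, divided by its length and by the size of the library. The FPKM of a library summed to between 349,733 and 456,531, and steps among values under 0.05 FPKM put the fragments behind a library at 0.67 to 1.15 times those of MF1. Epithelium was present in every library, since *EPCAM*, an adhesion protein of epithelial cells, read 70.9 to 482 FPKM, while none of 5 secretory cell genes looked for had a paired transcript. Muscle was present as well, and its share differed widely. In ML2, ML3, wF2 and wL2, 7 smooth muscle genes summed to 3004 to 6290 FPKM, against 418 to 1917 FPKM in the other 8 libraries. The same 4 libraries had 7.12 to 134 FPKM for 7 ciliated cell genes, against 243 to 462 FPKM in the other 8. *EPCAM* and the keratin *KRT8* together summed to 572 to 638 FPKM in MF, against 97.7 to 463 FPKM in ML, and to 339 to 695 FPKM in wF, against 271 to 724 FPKM in wL. In such mixed tissue, fewer cells of a type and less RNA per cell cannot be told apart. The part of this mixture in the results below was not tested unless a value is given.

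*CLDN7* was the most abundant of the 7 genes, and the single paired *TJP1* transcript was the lowest. Over the 12 libraries the median level was 94.8 FPKM for *CLDN7*, 28.3 for *CLDN10*, 25.3 for *OCLN*, 22.9 for *CLDN3*, 20.5 for *YBX3* and 10.03 for *CLDN1*, while the *TJP1* transcript had a median of 0. The median over all 8,676 tested genes was 7.69 FPKM. *CLDN7* stood above *CLDN10* in 10 of 12 libraries and *CLDN1* above *TJP1* in 12 of 12. *CLDN10*, *OCLN*, *CLDN3* and *YBX3* do not separate beyond their spread: *CLDN10* exceeded *OCLN* in 5 of 12 libraries, *OCLN* exceeded *CLDN3* in 9, and *CLDN3* exceeded *YBX3* in 7. The genes also differed in how much they varied. The SD of log2(FPKM + 0.1) was 0.56 for *CLDN7*, 0.63 for *CLDN3*, 0.71 for *OCLN* and 0.72 for *YBX3*, against 1.17 for *CLDN1* and 1.41 for *CLDN10*. It was 2.36 for the *TJP1* transcript, whose zeros enter as 0.1, and for all tested genes the median SD was 0.49.

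**Figure D1:**
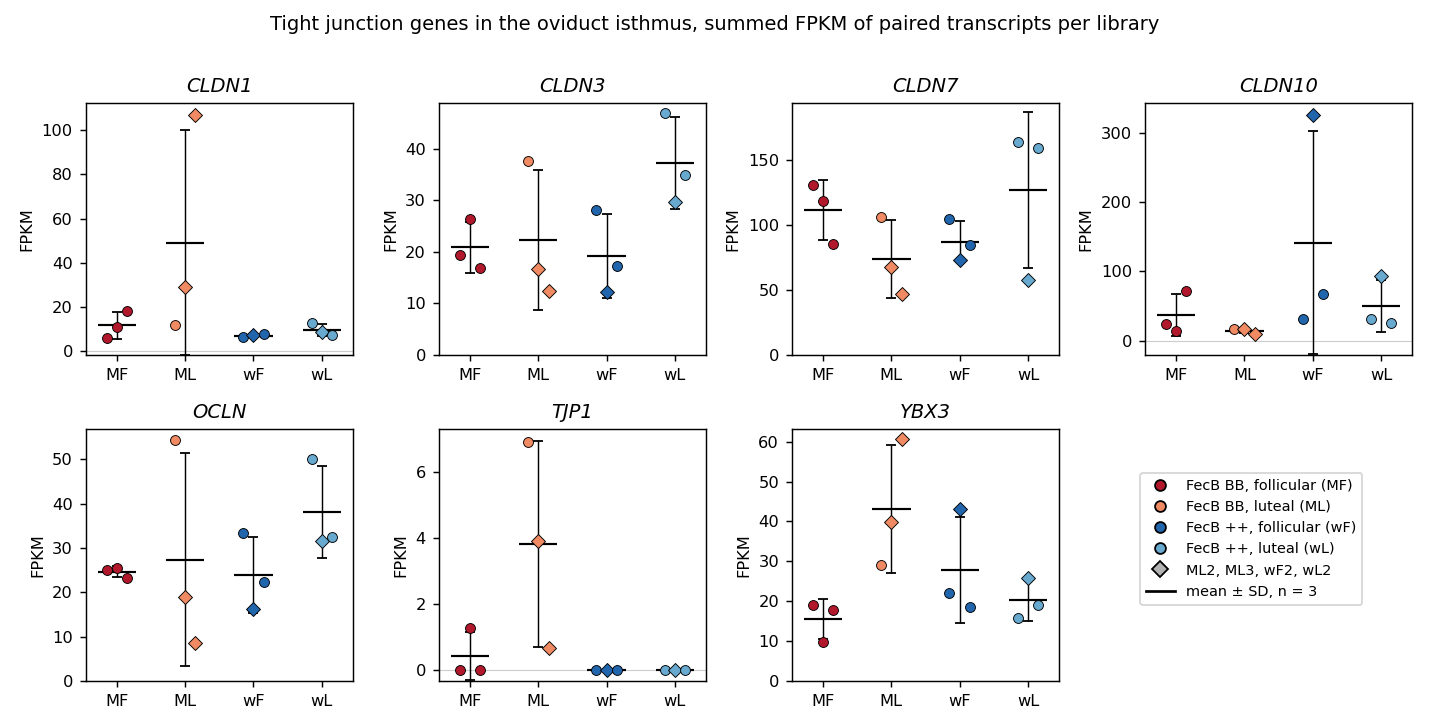
FPKM of the 7 paired tight junction genes (summed over paired transcripts) in each of the 12 libraries, by group, with the mean and SD of 3 libraries; diamonds mark ML2, ML3, wF2 and wL2. *CLDN1* reached 107 FPKM in ML3 and *CLDN10* 327 FPKM in wF2, while *TJP1* was listed at 0 in all wF and wL libraries.

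*CLDN7*, *CLDN3* and *OCLN* ran together over the libraries. *CLDN7*, a claudin of epithelia that also occurs along the lateral membrane, had 130, 118 and 85.4 FPKM in MF, against 106, 67.8 and 46.9 FPKM in ML. *CLDN7* had 104, 72.7 and 84.6 FPKM in wF, against 163, 57.9 and 159 FPKM in wL. The phases overlap in both genotypes, and the low values belong to particular libraries: *CLDN7* read 46.9 to 72.7 FPKM in ML2, ML3, wF2 and wL2 and 84.6 to 163 FPKM in the other 8. All 4 were below all 8 in 6.57% of the tested genes. *CLDN3*, a claudin that tightens the seal, had 19.4, 26.4 and 16.8 FPKM in MF, against 37.6, 16.7 and 12.3 FPKM in ML. In the wild type *CLDN3* had 28.1, 12.3 and 17.3 FPKM in wF, against 46.9, 29.7 and 35.0 FPKM in wL. Every wF library was thus below every wL library (10.7% of the tested genes), whereas MF and ML overlap. *OCLN* had 25.0, 25.6 and 23.2 FPKM in MF, against 54.3, 19.0 and 8.62 FPKM in ML. *OCLN* had 33.3, 16.2 and 22.3 FPKM in wF, against 50.1, 31.5 and 32.6 FPKM in wL. MF libraries lay close together and ML libraries spread on both sides of them. Over the 12 libraries Pearson's r of the log2 levels was 0.91 between *CLDN3* and *OCLN*, 0.69 between *CLDN3* and *CLDN7* and 0.71 between *OCLN* and *CLDN7*. Without ML2, ML3, wF2 and wL2 these values were 0.90, 0.72 and 0.47 over 8 libraries. The points share the mixture of cells in each library, so r is given as a description. With the summed smooth muscle genes r was -0.91 for *CLDN7*, -0.75 for *CLDN3* and -0.71 for *OCLN* over the 12 libraries (-0.80, -0.61 and -0.31 over the 8).

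*CLDN1* and *CLDN10* did not follow *CLDN3* and *CLDN7*, and each led these 4 paired claudins in 1 or 2 libraries. Claudins outside these 4 were not part of that ranking. *CLDN1*, a claudin that tightens the seal and is needed for the barrier of the skin in mice, had 5.96, 11.1 and 18.3 FPKM in MF, against 11.7, 28.9 and 107 FPKM in ML. In the wild type *CLDN1* had 6.34, 7.35 and 7.81 FPKM in wF, against 12.8, 9.01 and 7.61 FPKM in wL. The groups overlap in both comparisons, and the ML mean of 49.1 ± 50.6 FPKM (SD, n = 3) rests on ML3, the library with the lowest *EPCAM*. *CLDN10*, which forms ion pores in epithelia such as the kidney tubule, had 24.7, 14.0 and 71.3 FPKM in MF, against 16.2, 17.0 and 10.1 FPKM in ML. *CLDN10* had 32.0, 327 and 66.99 FPKM in wF, against 30.9, 93.6 and 25.7 FPKM in wL. Within the luteal phase every ML library was below every wL library, an order seen in 13.3% of the tested genes for ML against wL. Within the follicular phase MF and wF overlap. FPKM is set per length, so shares of the 4 claudins can be compared. *CLDN7* led in 9 of 12 libraries, with 44.5 to 72.2% of the 4 claudins in MF. *CLDN10* led in wF2 with 78.0% and in wL2 with 49.2%, and *CLDN1* led in ML3 with 60.6%. The 3 exceptions are all among the libraries with much smooth muscle. Pearson's r of *CLDN10* with the summed smooth muscle genes was 0.37 over the 12 libraries and 0.76 over the 8 without ML2, ML3, wF2 and wL2. Among those left out are its lowest level (10.1 FPKM in ML3) and its highest (327 FPKM in wF2). *CLDN3* led in none, with 2.93 to 21.9% of the pool.

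**Figure D2:**
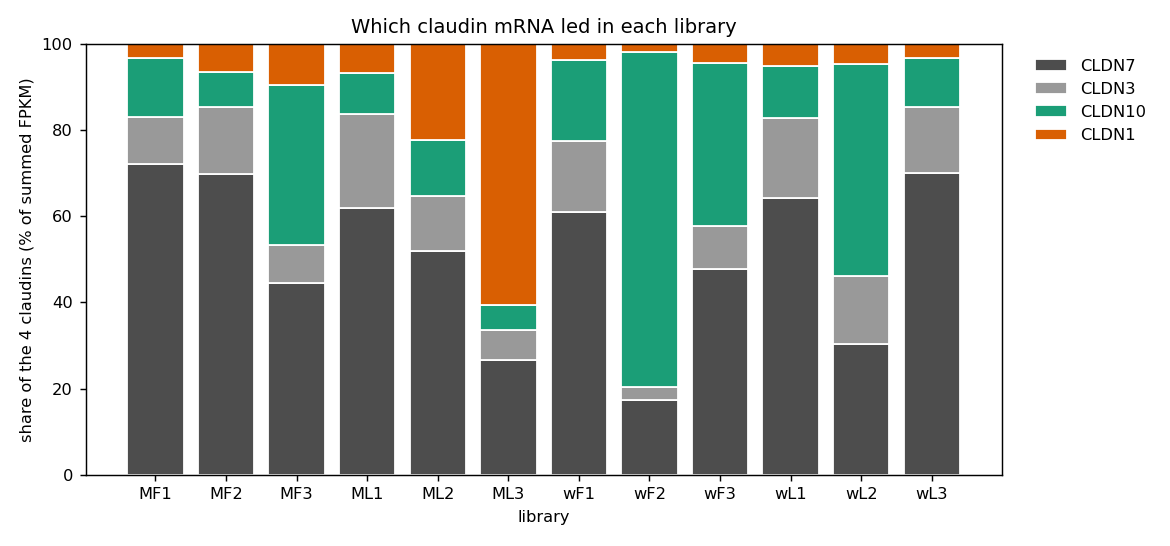
Share of each of the 4 paired claudins in their summed FPKM (%, stacked bars, 1 bar per library). *CLDN7* is the largest share in 9 of 12 libraries, *CLDN10* in wF2 (78.0%) and wL2 (49.2%), and *CLDN1* in ML3 (60.6%).

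The paired *TJP1* transcript was read in all 3 ML libraries and in MF2, and in no other library. XM_015101949.1 had 0, 1.27 and 0 FPKM in MF, against 6.93, 3.90 and 0.654 FPKM in ML, and it was listed at 0 in all 3 wF and all 3 wL libraries. It is 1 of 22 *TJP1* transcripts in the reference used for pairing, so these values follow a single transcript model, and an exact 0 can also be a failed estimate of that model. The level of the whole *TJP1* gene is not known from it. *YBX3* had 18.9, 9.86 and 17.7 FPKM in MF, against 29.1, 39.7 and 60.7 FPKM in ML. *YBX3* had 22.0, 43.2 and 18.6 FPKM in wF, against 15.9, 25.9 and 19.0 FPKM in wL. Every MF library was below every ML library (14.4% of the tested genes), while wF and wL overlap. Every ML library was also above every wL library, as for *TJP1* (4.83%). The highest 3 levels of *YBX3* were those of ML3, wF2 and ML2, libraries rich in smooth muscle RNA. Pearson's r with the smooth muscle sum was 0.86 over 12 libraries and 0.51 over the 8 without ML2, ML3, wF2 and wL2.

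None of the 7 genes was called between phases or genotypes. Calls were made with limma on log2(FPKM + 0.1), at an adjusted p under 0.05 over all 8,676 tested genes together with a log2 change of 1 or more in size. For MF against ML, which asks for the phase difference in the mutant, 0 of 7 were called beside 1.73% of all tested genes. At an unadjusted p under 0.05, 3 of 7 were lower in MF (11.3% of all tested genes) and 0 of 7 higher (14.2%). The 3 are *YBX3* (log2 change -1.46, SE 0.39, adjusted p = 0.070), *TJP1* (-3.53, SE 1.03, adjusted p = 0.085) and *CLDN1* (-1.63, SE 0.67, adjusted p = 0.17). Without ML3, *CLDN1* stood at -0.79, and with the epithelial level of the library as a covariate at -0.34. Without ML2, ML3, wF2 and wL2, *CLDN1* stood at -0.14, but that fit leaves ML1 as the only ML library. *YBX3* stood at -0.96 without those 4 libraries, again with ML1 alone in ML. With the covariate *YBX3* stood at -0.75 (adjusted p = 0.41). Relative to the epithelial genes *EPCAM* and *KRT8* the changes were larger, at -2.79 and -3.02 for *YBX3* and -2.95 and -3.18 for *CLDN1*. The median of all genes was then -1.27 and -1.50. Neither gene was called, beside 0.0115% and 0.207% of all tested genes. The *TJP1* estimate depends on the value added to its zeros and was -1.61 with 1 FPKM added. The other 4 genes lay between 0.05 for *CLDN3* and 1.04 for *CLDN10*, and the 95% intervals of all 4 include 0. That of *CLDN3* runs from -0.87 to 0.98, so a difference close to the size needed for a call is within it. With the epithelial covariate *CLDN3* stood at -0.87 (adjusted p = 0.26), *OCLN* at -1.03 (adjusted p = 0.23), *CLDN7* at -0.30 and *CLDN10* at 1.80. Relative to *EPCAM* all 4 were negative, from -1.27 for *CLDN3* to -0.28 for *CLDN10*. Relative to *KRT8* they ran from -1.50 for *CLDN3* to -0.51 for *CLDN10*.

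For wF against wL, the phase difference in the wild type, limma called 0 of 7 members and 0% of all tested genes. At an unadjusted p under 0.05 there was 1 member lower, *CLDN3* (log2 change -1.004, SE 0.42, adjusted p = 0.52; 19.2 ± 8.10 FPKM in wF and 37.2 ± 8.82 FPKM in wL, SD, n = 3 each), beside 5.97% of all genes, and 0 higher (2.82%). Without wF2, which is among the libraries rich in muscle, the change of *CLDN3* was -0.72, and without wF1 it was -1.32. With the epithelial covariate it was -0.94 (adjusted p = 0.25). Relative to *EPCAM* it was -1.17, where the median of all genes was -0.29. Relative to *KRT8* it was -0.63, where that median was 0.26. Pooled over genotypes, follicular against luteal, 0 of 7 were called beside 0.853% of all genes. Only *TJP1* had an unadjusted p under 0.05 there (log2 change -1.77, SE 0.73, adjusted p = 0.21), beside 10.8% of all genes lower and 9.26% higher, and its values come from ML and MF2. The other 6 genes lay between -1.02 for *CLDN1* and 1.06 for *CLDN10*.

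**Figure D3:**
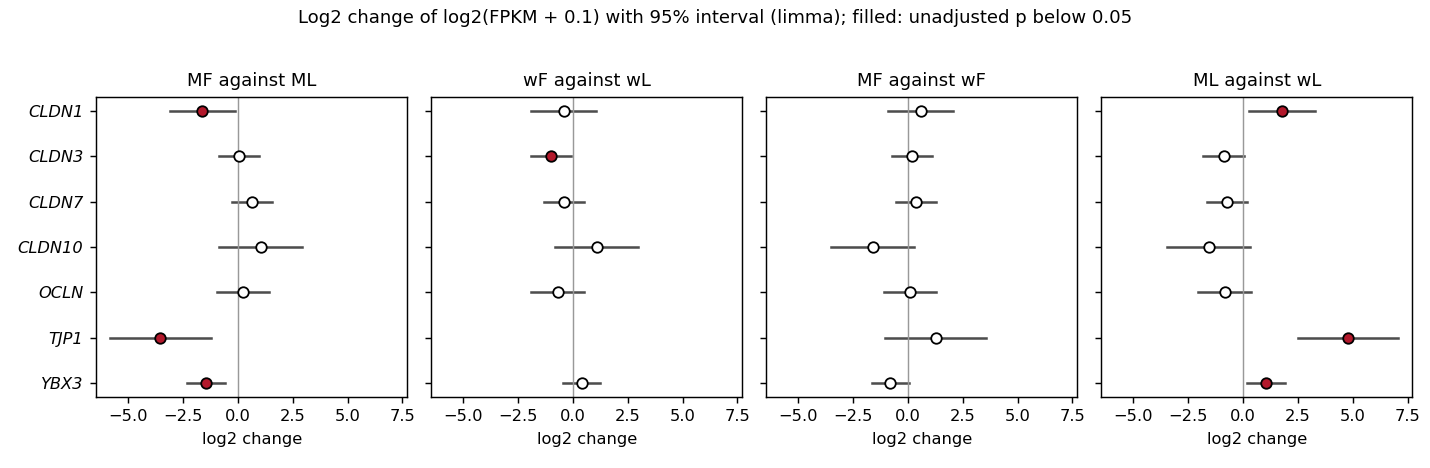
Log2 change of each gene (x axis) in the 4 comparisons of 2 groups, with the 95% interval from limma; filled points have an unadjusted p under 0.05, and *TJP1* is left out of wF against wL, where it was listed at 0 throughout. For MF against ML, *CLDN1*, *TJP1* and *YBX3* lie on the negative side, at -1.63, -3.53 and -1.46.

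Between genotypes the follicular groups gave 0 of 7 calls (0.0231% of all genes) and 0 of 7 at an unadjusted p under 0.05 (3.15%). The smallest p among them was that of *YBX3* (MF against wF, log2 change -0.80, SE 0.39, adjusted p = 0.997). In the luteal phase, ML against wL, 0 of 7 were called and 0% of all genes. At an unadjusted p under 0.05, 3 of 7 were higher in ML, beside 3.84% of all genes, and 0 were lower (9.22%). These were *CLDN1* (log2 change 1.78, SE 0.67), *YBX3* (1.05, SE 0.39) and *TJP1*, each with an adjusted p of 0.38. *TJP1* was listed at 0 throughout wL, so no fold is given. *CLDN1* stood at 0.94 without ML3 and at 0.24 without ML2, ML3, wF2 and wL2, a fit in which ML1 is the only ML library. With the epithelial covariate *YBX3* stood at 0.48 (adjusted p = 0.85) and *CLDN1* at 0.74 (adjusted p = 0.86). Relative to *EPCAM* and *KRT8* the changes were larger, at 2.02 and 2.40 for *YBX3* and 2.74 and 3.13 for *CLDN1*. The median of all genes was then 0.81 and 1.19. Neither gene was called, beside 0% and 0.0461% of all tested genes. The comparisons MF against ML and ML against wL share the ML libraries, so the same 3 names in both are not separate evidence. Whether the phase difference itself differed between genotypes was tested as an interaction, and 0 of 7 were called (0.0115% of all genes). *YBX3* had a negative interaction at an unadjusted p under 0.05 (log2 difference -1.85, SE 0.55, adjusted p = 0.37), beside 4.7% of all genes. It was -1.09 (adjusted p = 0.88) with the epithelial covariate, -3.01 relative to *EPCAM* and -3.78 relative to *KRT8*. The median interaction of all genes was -0.95 relative to *EPCAM* and -1.73 relative to *KRT8*. *TJP1* was also past that p, but with 0 in every wF and wL library its interaction only repeats the MF against ML value.

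Set against the epithelial marker *EPCAM*, *CLDN3* and *OCLN* were lower in follicular libraries than in luteal ones in both genotypes, with no overlap. Per 100 FPKM of *EPCAM*, *CLDN3* had 5.38, 7.65 and 4.16 FPKM in MF, against 12.6, 10.998 and 17.4 FPKM in ML. In the wild type the *CLDN3* ratio was 5.84, 6.31 and 4.79 in wF, against 9.88, 19.7 and 10.49 in wL. The highest follicular ratio was thus 7.65 and the lowest luteal one 9.88. The *OCLN* ratio was 6.91, 7.42 and 5.74 in MF, against 18.2, 12.5 and 12.1 in ML. In the wild type the *OCLN* ratio was 6.90, 8.34 and 6.17 in wF, against 10.54, 20.9 and 9.77 in wL. The highest follicular *OCLN* ratio was 8.34 and the lowest luteal one 9.77. Over all tested genes, 0.957% had every follicular ratio below every luteal one. The *CLDN7* ratio overlapped between phases, at 21.1 to 37.3 in follicular and 34.4 to 66.1 in luteal libraries. *CLDN1*, *CLDN10*, *TJP1* and *YBX3* overlapped as well. The ratio was chosen after the values were seen, and dividing by *EPCAM* moves all genes, to a median log2 change of -0.78 between the phases, because *EPCAM* itself stood at 0.75. Unscaled, limma gave a pooled log2 change of -0.48 for *CLDN3* (SE 0.29, adjusted p = 0.40) and -0.23 for *OCLN* (SE 0.38, adjusted p = 0.77). With *EPCAM* as the scale, limma gave *CLDN3* a log2 change of -1.22 (SE 0.36) and *OCLN* one of -0.97 (SE 0.35), both with an adjusted p of 0.23. Only 0.0231% of all tested genes were called on that scale. With the mean level of *EPCAM* and *KRT8* as a covariate in place of a ratio, the change was -0.90 for *CLDN3* (SE 0.20, adjusted p = 0.053) and -0.82 for *OCLN* (SE 0.21, adjusted p = 0.082), so neither was called. The fit with the covariate called 97 of the 8,676 tested genes. Divided by *KRT8* instead, the phases overlap for both genes. *CLDN3* then had 7.04 to 14.3 FPKM per 100 FPKM of *KRT8* in follicular libraries, against 12.9 to 46.2 in luteal ones. The *OCLN* ratio was 9.05 to 18.5 in follicular libraries, against 12.0 to 32.9 in luteal ones. With *KRT8* as the scale the pooled log2 change was -1.07 for *CLDN3* (SE 0.42) and -0.82 for *OCLN* (SE 0.41), both with an adjusted p of 0.44. The median of all genes was -0.63, and 0.0346% of them were called.

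**Figure D4:**
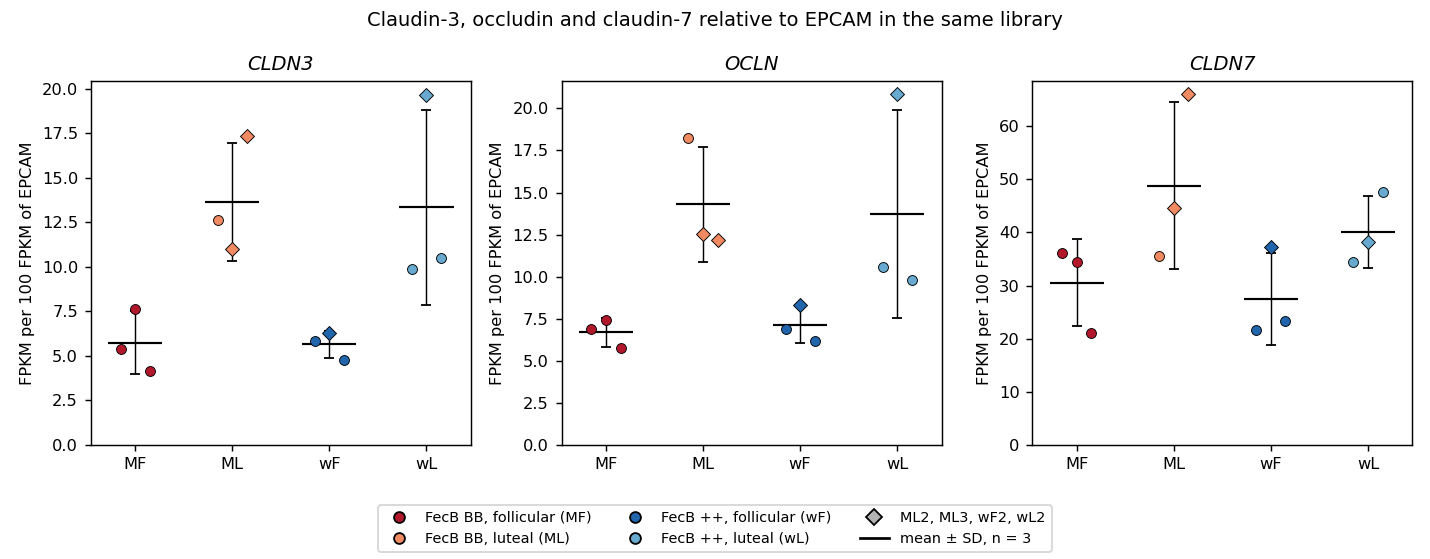
FPKM of *CLDN3*, *OCLN* and *CLDN7* per 100 FPKM of *EPCAM* in the same library (y axis), by group, with the mean and SD of 3 libraries. Follicular libraries lie at 4.16 to 7.65 for *CLDN3* and 5.74 to 8.34 for *OCLN*, below the luteal ones at 9.88 to 19.7 and 9.77 to 20.9, whereas *CLDN7* overlaps.

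Occludin was the only one of the 7 genes with more than 1 paired transcript. XM_015101257.1 held 68.3 to 90.4% of the summed *OCLN* FPKM. XM_012096797.2 held 1.71 to 19.6% and XM_015101256.1 held 4.45 to 17.6%, and XM_015101255.1 was listed at 0 in all 12 libraries. XM_012096797.2 had 2.07, 2.46 and 2.67 FPKM in MF, against 6.17, 3.72 and 1.34 FPKM in ML. In the wild type it had 4.82, 0.277 and 0.744 FPKM in wF, against 4.18, 5.51 and 4.12 FPKM in wL. Low values in wF2 and wF3 set this difference, and wF1 lay within the range of wL. Over 31,290 annotated transcripts limma gave XM_012096797.2 a log2 change of -2.01 for wF against wL (SE 0.82, adjusted p = 0.68), which was -1.19 without wF2 and -3.05 without wF1. XM_015101256.1 of *OCLN* lay between 1.39 and 5.18 FPKM. XM_015101255.1 did not pass the filter on low values, and limma called none of the other 9 transcripts in any of the 6 contrasts. Of all annotated transcripts, 0.272% were called between MF and ML, 0.00959% between wF and wL, and 0.233% between the pooled phases. The shares were 0.016% between MF and wF, 0.032% between ML and wL and 0.016% in the interaction.

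Other junction genes were followed with lists of further claudins, other membrane proteins, scaffolds and polarity proteins, 60 genes of which 30 had a paired transcript and 28 were tested. None was called in any contrast. For MF against ML, 1 of 28 was higher and 4 lower at an unadjusted p under 0.05, beside 14.2 and 11.3% of all genes. *F11R*, which encodes the adhesion molecule JAM-A, was the higher one, named after its value was seen (log2 change 1.16, SE 0.46, adjusted p = 0.15). Of the lower ones, *DLG1*, a scaffold that takes part in apicobasal polarity, had the smallest p (log2 change -0.57, SE 0.14, adjusted p = 0.057). The median of the 28 was 0.08, beside 0.06 for all genes. For wF against wL, 0 of 28 were higher and 2 lower at an unadjusted p under 0.05, beside 2.82 and 5.97% of all genes. At any p, 23 of 28 lay on the lower side in wF (61.1% of all genes did). Their median was -0.33, beside -0.12 for all genes. Pooled over genotypes, 0 of 28 were higher and 5 lower in the follicular phase at an unadjusted p under 0.05, beside 9.26 and 10.8% of all genes. The 5 were *MAGI3*, *DLG1*, *AMOTL2*, *PARD6A* and *JAM3*, named here after their values were seen. *MAGI3*, a membrane-associated scaffold with PDZ domains, had the smallest p (log2 change -0.47, SE 0.13, adjusted p = 0.096). For ML against wL, 2 of 28 were higher and 1 lower, beside 3.84 and 9.22% of all genes. For MF against wF none of the 28 reached an unadjusted p under 0.05 in either direction, beside 3.15% of all genes.

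Several of these genes had levels in ML2, ML3, wF2 and wL2 apart from those in the other 8 libraries, as *CLDN7* did. The part of tissue mixture in this was not tested. In ML2, ML3, wF2 and wL2, *CLDN11*, the claudin of myelin and of Sertoli cells, had 2.13 to 14.4 FPKM, against 29.4 to 69.6 FPKM in the other 8. *CLDN9* had 0.0351 to 0.566 FPKM in the 4 and 2.37 to 9.25 FPKM in the 8. *CLDN8* ran the other way, with 9.32 to 18.4 FPKM in the 4 and 1.011 to 8.17 FPKM in the 8. The adaptor cingulin (*CGN*), the adhesion protein *CXADR* and *F11R* were lower in all 4 than in all 8, as was *EPCAM* (70.9 to 195 FPKM and 298 to 482 FPKM). These 4 libraries were picked by their muscle and cilia genes, so the counts describe that choice, and 5.37% of all tested genes were higher in all 4.

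A further transcript bears on the name of claudin-1. XM_004002867.2 is named CLDN1 in a supplement of the study, with the gene identifier 101106127, which the sheep reference names *CLDND1*, a claudin domain protein. It was therefore not counted as *CLDN1* (gene identifier 780473, transcript NM_001185016.1). XM_004002867.2 had 6.31, 4.24 and 0 FPKM in MF, against 0 in all 3 ML libraries, and at most 0.107 FPKM in wF and 0.0502 FPKM in wL. This is a different pattern from that of NM_001185016.1, which was read in all 12 libraries.

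The genes most like each member over the 12 libraries were sought among 7,383 other genes with a mean of at least 1 FPKM, by Pearson's r of the log2 levels. For *CLDN7* these were *SEC62* (r = 0.98), *SCCPDH* (0.97) and *CYB561* (0.97). For *CLDN3* they were *MEPCE* (0.95), *KCTD2* (0.95) and *OARD1* (0.95), and for *OCLN* *SIRT3* (0.96), *SAMD15* (0.95) and *ZDHHC15* (0.94). *CLDN10* came closest to *RRAD* (0.94), *CPVL* (0.93) and the angiotensin receptor *AGTR2* (0.89), and *CLDN1* to the secreted Wnt inhibitor *DKK1* (0.93), *HMG20B* (0.92) and *TBC1D9* (0.92). *YBX3* came closest to *EHD1* (0.97), *ATP7A* (0.96) and LOC105605613 (0.95), and the *TJP1* transcript to *RTTN* (0.88), *RC3H1* (0.86) and LOC101102851 (0.82). No nearest gene was shared between members. These are the highest of many r values over 12 libraries that share their cell mixture, and they carry no test.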

How the data were processed

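Polyadenylated, rRNA-depleted RNA was sequenced as paired reads. The authors trimmed reads with fastp, mapped them to Oar_v3.1 with HISAT2, built the mRNA transcripts with StringTie and estimated expression as FPKM, which they deposited per transcript and library (the tool for this last step is not given in the sources used here). Read counts were not used here, so the depth behind a value is unknown beyond the estimate from low values. That estimate is the commonest ratio to MF1, held by 2.20% (ML2) to 3.75% (wL1) of the low values compared. The paper gives average clean reads per group, which were not set beside it. Replicates are separate ewes.

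Transcripts were paired with genes by RefSeq accession through the reference of a newer assembly (ARS-UI_Ramb_v3.0), ignoring the version where needed, and 34.8% of the annotated transcripts, holding 67.6% of their FPKM, were paired. Gene sums are therefore incomplete, and no coordinates were used. Genes with a mean of at least 0.1 FPKM were fitted as log2(FPKM + 0.1) in limma 3.58.1 (R 4.3.3), with a trend and 4 group means over 12 libraries. The added 0.1 makes changes of low genes smaller. p values are 2-sided and adjusted by Benjamini and Hochberg over all features of a kind. Steps were tested on simulated data. Python 3.11.15 with pandas 2.3.3, numpy 2.4.6 and matplotlib 3.10.9 made the descriptions.

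The members and lists were chosen with earlier results of these data known. All 9 members were to be named, with statistics where the unadjusted p was under 0.05 or the smallest, and other listed genes at an unadjusted p under 0.01. Other settings were 1 FPKM added, no filter, a mean of at least 1 FPKM, quantile normalization, the replicate number as a block, the compared libraries alone, an epithelial covariate (*EPCAM* and *KRT8*, the paired ones of 5 listed genes) and each library left out. Leaving out ML2, ML3, wF2 and wL2, and levels relative to *EPCAM* or *KRT8*, were added after seeing the data.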

Additional observations from a re-analysis of the deposited data

Results flagged for a closer look

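Among 14 sets of 6 libraries of a phase, 1 held a library far from the others: MF2, with 1.27 FPKM of the *TJP1* transcript XM_015101949.1, where the other 5 follicular libraries were listed at 0. About 1 in 20 sets of continuous values would be marked by chance. With the other 5 libraries at 0, any value above 0 would have been marked, so that rate does not apply to this set.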

How the results depend on the processing

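With each library left out in turn the count of called tight junction genes or transcripts stayed at 0 in every contrast. Among 403 values under other settings, 191 log2 changes and otherwise counts of called features, 399 kept their side of the threshold for a call. The exceptions concern the *TJP1* transcript relative to *KRT8*, where the count of called genes was 1 for MF against ML (adjusted p = 0.040) and 1 for ML against wL (adjusted p = 0.018). Of all tested genes, 0.207% were called relative to *KRT8* for MF against ML and 0.0461% for ML against wL. No fold is given for *TJP1*, since 8 of 12 libraries were listed at 0, and a zero enters as 0.1 divided by *KRT8*. Relative to *EPCAM* the count was 0. With the replicate number as a block the count was 0 in all 12 results, and same-numbered ewes share only a number: the correlation of their deviations ran from -0.19 to 0.39. The fit to the compared libraries alone was run for comparisons of 2 groups and not for the pooled phases or the interaction. All 191 values of 11 log2 changes kept their sign. These 11 were taken because limma gave them an unadjusted p under 0.05 in the main fit, so a kept sign was likely beforehand. Their size moved more: for *CLDN1*, MF against ML, it was -1.63 in the main fit and ran from -3.18 to -0.14. Outside these 11, *CLDN3*, *OCLN* and *CLDN7* changed sign for MF against ML with the epithelial covariate. Depth is not known for single transcripts, so low FPKM can rest on few fragments.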
